A study of Homo sapiens with 22 samples.

Results

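DNA replication and mitosis genes were followed while human fibroblasts were reprogrammed towards pluripotency. The 59 genes were taken by symbol from a fixed list of cell cycle genes, out of 33694 genes in the deposited matrices. They comprised 23 replication genes, 5 regulators of the step from G1 into S phase (G1/S regulators) and 31 mitosis genes. Each of the 59 had a unique row in the matrices and a UMI in at least 5% of the cells kept, the lowest being CCNE2 with 7.96%. DTL, CDCA7, CCNE2 and CCND2 had a UMI in fewer than 5% of the cells of day 0 and passed that filter through later days.

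The cells were BJ cells, an established line of human foreskin fibroblasts, grown in microfluidic chambers. Day 0 (D0) cells were the control fibroblasts, which were not transfected. From day 1 the cells received 1 transfection a day of mRNAs for the reprogramming factors POU5F1, SOX2, KLF4, MYC, LIN28 and NANOG in supplemented Pluriton medium, which ended at day 8. From day 9 they stayed in StemMACS iPSBrew XF, a medium for pluripotent cells, and the whole course was run at low oxygen. Single-cell RNA-seq libraries came from 8 days, D0 and every other day from D3 to D15, all of this line, with no parallel untransfected culture after D0. Time in culture, the transfections and the changes of medium therefore cannot be told apart. The paper cultured BJ cells in DMEM with fetal bovine serum. Every comparison with D0 thus also holds the change from that medium to those of reprogramming. At each day there were 2 pools, A and B, each of cells from 4 chips that were mixed and frozen, so that differences between chips are not visible and a pool is the replicate.

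The 22 libraries formed 16 pools with 571 to 6142 cells and 33181614 to 180056814 UMIs (molecules counted after removal of PCR copies) per pool, and a median of 23717 to 80168 UMIs per cell. Of 42998 different cell barcodes, 1185 occurred in more than 1 library. Fibroblast markers summed to 5059 and 5240 CPM (UMIs per 1000000 UMIs of the pool) at D0 and to 933 and 1108 CPM at D15, and markers of pluripotent cells to 4.69 and 4.83 CPM at D0 and 3702 and 3231 CPM at D15. The D7 pools differed in both, with 2846 CPM of fibroblast markers in pool A and 5373 CPM in pool B. Mesendoderm markers went from 0.138 and 0.143 CPM at D0 to 193 and 142 CPM at D11 and 86.5 and 123 CPM at D15, and endothelial markers, of which KDR reached 28.4 CPM, from 0.996 and 1.14 CPM at D0 to 29.9 and 21.3 CPM at D15. Leukocyte markers, mainly CD68, fell from 89.1 and 88.0 CPM to 1.05 and 1.54 CPM, and the 4 keratinocyte markers stayed at or under 0.246 CPM in sum in every pool. Leukocyte markers other than CD68 reached at most 2.02 CPM (PTPRC) in any pool, and endothelial markers other than KDR at most 0.809 CPM (CDH5). The part of cells with any of these markers in the results was not tested. In a pool, a smaller number of cells that use a gene and less RNA of it per cell cannot be told apart.

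A cell copies its DNA in S phase and divides it in mitosis. Before S phase the MCM proteins are loaded onto origins as an inactive helicase by CDC6 and CDT1. At the start of S phase CDC45 and the GINS complex switch it on, polymerases with the sliding clamp PCNA copy the strands, and ribonucleotide reductase (RRM1, RRM2) and thymidylate synthase (TYMS) supply nucleotides. Many of these genes are turned on by E2F factors once cyclin D and cyclin E kinases have inactivated the retinoblastoma protein. Mitosis genes are transcribed later, in G2, through CHR and CCAAT promoter elements bound by the MuvB-B-MYB-FOXM1 machinery and by NF-Y. Pluripotent stem cells are known for a short G1 phase and a large share of cells in S phase.

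The promoters of the lists were read from a set of RefSeq starts (GRCh38.p14) that held 49 of the 59 members. The 250 bases before the start of transcription were searched on both strands. E2F letters (TTTGGCGC, TTTGCCGC, TTTCGCGC or TTTCCCGC) were present in 11 of 21 replication promoters and 3 of 26 mitosis promoters, beside 5.61% of 9545 promoters of genes tested and 3.4% of all 27305 genes listed. CHR letters (TTTGAA or TTTAAA) were present in 19 of 26 mitosis promoters and 4 of 21 replication promoters, beside 19.2% of the genes tested and 25.5% of all. CCAAT was present in 20 of 26 mitosis promoters and 14 of 21 replication promoters, beside 42% of the genes tested and 37% of all. CHR and CCAAT stood together in 16 of 26 mitosis promoters, 4 of 21 replication promoters and 10% of the genes tested. A gene with several listed starts was counted if any of them held the letters, and a match of letters is not a bound site.

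The following promoters show these letters for a replication gene that rose (MCM6), the replication gene that fell furthest by D15 (TYMS) and a pair of mitosis genes (CDC20 and TOP2A). Capitals mark E2F, CHR and CCAAT letters on either strand, and each sequence is written 5′ to 3′ on the strand of its gene, ending at the base before the start. They lie at chr2:135876444-135876693 (minus strand), chr18:657403-657652 (plus strand), chr1:43358731-43358980 (plus strand) and chr17:40417897-40418146 (minus strand).
MCM6: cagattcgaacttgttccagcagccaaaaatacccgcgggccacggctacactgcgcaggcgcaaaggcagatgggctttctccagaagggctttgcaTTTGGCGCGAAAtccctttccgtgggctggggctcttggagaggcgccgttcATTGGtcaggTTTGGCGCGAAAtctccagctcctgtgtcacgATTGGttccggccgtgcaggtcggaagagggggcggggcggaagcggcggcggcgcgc
TYMS: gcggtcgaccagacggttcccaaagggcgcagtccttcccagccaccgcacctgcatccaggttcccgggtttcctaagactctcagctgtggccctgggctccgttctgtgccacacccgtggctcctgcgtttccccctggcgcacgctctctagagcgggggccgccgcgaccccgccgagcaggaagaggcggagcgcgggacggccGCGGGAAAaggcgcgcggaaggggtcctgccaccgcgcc
CDC20: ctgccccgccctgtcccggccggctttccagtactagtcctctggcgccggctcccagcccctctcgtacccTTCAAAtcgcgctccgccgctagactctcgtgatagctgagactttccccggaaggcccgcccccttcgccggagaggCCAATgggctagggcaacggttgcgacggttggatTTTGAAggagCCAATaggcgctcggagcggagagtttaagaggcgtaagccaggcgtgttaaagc
TOP2A: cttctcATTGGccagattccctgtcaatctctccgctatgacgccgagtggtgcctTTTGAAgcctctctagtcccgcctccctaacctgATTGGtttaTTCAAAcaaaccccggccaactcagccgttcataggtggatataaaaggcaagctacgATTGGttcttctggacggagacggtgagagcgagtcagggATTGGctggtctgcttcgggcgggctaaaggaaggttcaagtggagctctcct
The capitals of MCM6 form 2 places where E2F letters overlap on both strands, which gives 4 matches, and 2 CCAAT boxes. TYMS held 1 E2F match and neither CHR nor CCAAT. CDC20 held 2 CHR and 2 CCAAT matches, TOP2A 2 CHR and 4 CCAAT matches, and neither held E2F letters.

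The summed level of the replication genes was lowest at D0 and higher at every later day, although not every gene followed it: TYMS lay below its D0 pools from D11 on. The sum was 441 and 447 CPM in the D0 pools, 1328 and 943 CPM at D3, 1066 and 786 CPM at D5, 1308 and 1065 CPM at D7 and 1293 and 1385 CPM at D9. It was 1102 and 1173 CPM at D11, 1368 and 988 CPM at D13 and 1134 and 1112 CPM at D15. All pools of D3 to D15 lay above both D0 pools, and both D9 pools lay above both pools of D5, D11 and D15. The mitosis genes summed to 1256 and 1264 CPM at D0, 2204 and 2113 CPM at D3, 1777 and 1745 CPM at D5, 2517 and 1905 CPM at D7 and 2465 and 2665 CPM at D9, and then to 2777 and 2709 CPM at D11, 2808 and 3024 CPM at D13 and 3653 and 3266 CPM at D15. Both D15 pools lay above every other pool. They also had the highest median share of mitochondrial UMIs per cell, 5.69% and 6.22% beside 2.96% and 3.33% at D0 and 2.38% to 5.49% in the other pools, and the part of this in the result was not tested. Fibroblast markers, at 5059 and 5240 CPM at D0, summed to 3091 and 2850 CPM at D3, where both lists were higher than at D0, and to 6587 and 4044 CPM at D5, where both mitosis pools lay below those of D3. They were at 2134 and 1971 CPM at D9, 2798 and 3136 CPM at D11 and 3018 and 1626 CPM at D13, and their part in the sums was not tested. The mitosis sum was 2.85 and 2.82 times the replication sum at D0, 1.66 and 2.24 times at D3, 1.91 and 1.92 times at D9 and 3.22 and 2.94 times at D15.

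**Figure D1:**
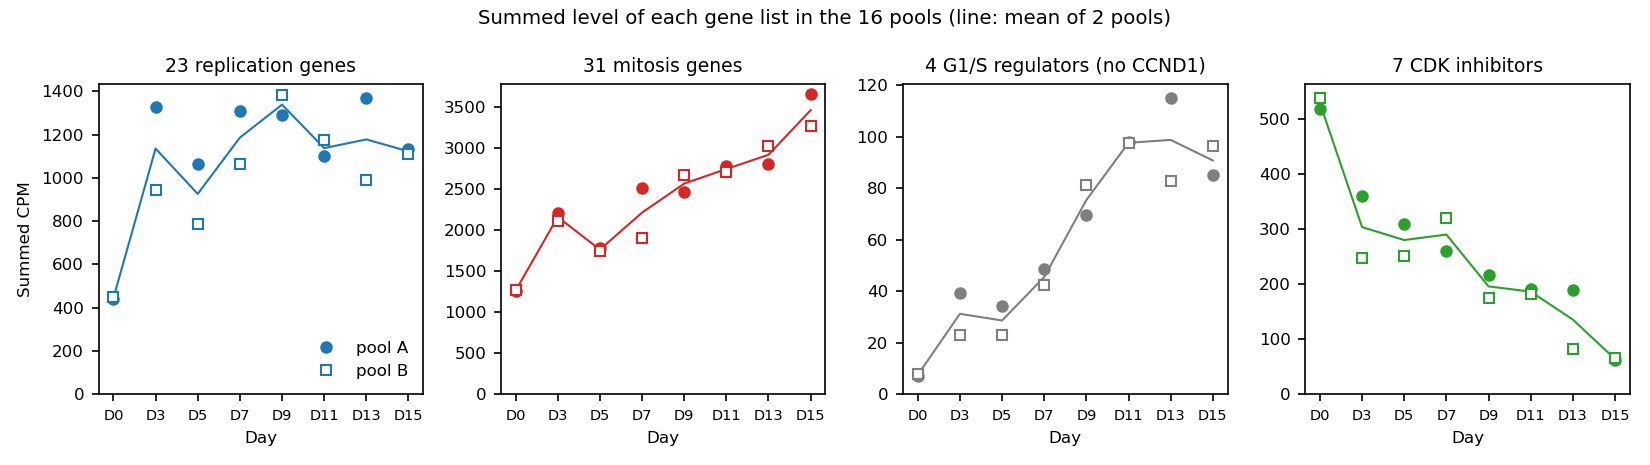
Summed CPM (UMIs per 1000000 UMIs of the pool, y axis) of the replication genes, the mitosis genes, 4 G1/S regulators without CCND1 and 7 CDK inhibitors, by day (x axis). In the G1/S panel CCND2 held 64.6 and 64.3 of 97.9 and 97.4 CPM at D11. At D15 it held 50.5 and 57.3 of 85.1 and 96.6 CPM. E2F1 and CCNE2 were lower and CCNE1 higher at D15 than at D7. Filled circles are pool A, open squares pool B, and the line joins the means of 2 pools; all replication sums after D0 lie above those of D0, mitosis genes reach 3653 and 3266 CPM at D15, and CDK inhibitors fall to 61.4 and 66.4 CPM.

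The comparison of D3 with D0 asks what happened after the earliest transfections. It was tested with edgeR's quasi-likelihood test on UMIs summed per pool, and a gene was called at a Benjamini-Hochberg adjusted p below 0.01 over 12794 genes and a log2 fold change beyond 0.25. Of the 59 genes 33 were called, all higher at D3, beside 25.6% of all genes tested in either direction and 13.1% that rose. By list these were 20 of 23 replication genes with a median log2 fold change of 1.75, 3 of 5 G1/S regulators and 10 of 31 mitosis genes with a median of 0.53. The median over all genes tested was -0.06. Without CDCA7, DTL, CCNE2 and CCND2, which had too few D0 cells with a UMI to pass on that day alone, 30 of 55 rose. Leaving out pool A or pool B of D0 left 16 calls, and a fit on the D3 and D0 pools alone left 0.

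All 6 MCM genes rose at D3, with log2 fold changes from 1.497 (MCM6) to 1.93 (MCM3). MCM3 stood at 17.7 and 14.9 CPM at D0 and at 61.1 and 65.6 CPM at D3, and MCM7 at 25.7 and 25 CPM and then 132 and 66.4 CPM. For MCM2, MCM5 and MCM7 pool A of D3 was higher than pool B, while both stayed above D0. The loading and firing factors rose further, all 4 of them, between 2.42 and 2.62 on the log2 scale. CDT1 went from 5.97 and 6.32 CPM at D0 to 49.1 and 29.0 CPM at D3 (log2 fold change 2.62 ± 0.29, SE, edgeR adjusted p = 3.7e-05). CDC6, which brings the helicase to the origin with CDT1, went from 3.65 and 3.27 CPM to 26.7 and 16.7 CPM (2.60 ± 0.28, SE, edgeR adjusted p = 3.0e-05).

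At the fork and in chromatin assembly 6 of 7 genes rose. DTL, an adaptor of the ubiquitin ligase that removes CDT1 during S phase, was at 1.69 and 1.57 CPM at D0 and at 12.1 and 13.5 CPM at D3 (fitted log2 fold change 2.94, a description since it passed the filter through later days). FEN1, the flap nuclease of lagging-strand synthesis, was at 10.7 and 10.5 CPM at D0 and 80.2 and 40.9 CPM at D3. PCNA, at 69.6 and 71.4 CPM at D0 and 140 and 105 CPM at D3, did not pass (edgeR adjusted p = 0.012). Among the genes of nucleotide supply and the others, CDCA7, which works with the helicase HELLS in DNA methylation, went from 1.69 and 1.92 CPM to 22.8 and 21.2 CPM (fitted log2 fold change 3.57, likewise a description). RRM2 and SLBP, which binds histone mRNA, rose as well, by 1.10 and 1.37. RRM1 (0.55, edgeR adjusted p = 0.024) and TYMS (0.34, edgeR adjusted p = 0.21) were not called, and the TYMS pools overlapped.

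Of the G1/S regulators, both cyclin E genes and E2F1 rose at D3. CCNE2 went from 0.426 and 0.489 CPM to 5.73 and 4.69 CPM, at low counts (fitted log2 fold change 3.47, likewise a description). CCNE1 rose from 2.76 and 2.60 CPM to 14.8 and 9.75 CPM (2.15 ± 0.24, SE, edgeR adjusted p = 3.8e-05), and E2F1 from 3.59 and 4.03 CPM to 18.5 and 8.35 CPM (1.76 ± 0.33, SE, edgeR adjusted p = 0.0012). CCND1, a cyclin D gene, stood at 524 and 481 CPM at D0, and its D3 pools lay on either side of that at 420 and 748 CPM.

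Of the mitosis genes, 3 of 6 cyclins and CDK partners, 3 of 6 kinases and checkpoint genes and both genes of the anaphase-promoting complex were called at D3, and the roles were not tested against each other. TTK (0.53), BUB1 (0.37) and BUB1B (1.08, edgeR adjusted p = 0.046) did not pass. AURKB, the kinase of the chromosomal passenger complex, stood at 19.6 and 19.3 CPM at D0 and 82.6 and 75.6 CPM at D3 (log2 fold change 1.99 ± 0.20, SE, edgeR adjusted p = 1.7e-05). PLK1 rose from 18.0 and 18.4 CPM to 66.1 and 35.2 CPM (1.43 ± 0.30, SE, edgeR adjusted p = 0.0026), and CDC20, the activator of the anaphase-promoting complex, from 50.4 and 50.8 CPM to 146 and 96.3 CPM. AURKA rose by 1.27 ± 0.24 (SE, edgeR adjusted p = 0.0015) and CCNA2 by 1.36 ± 0.36 (SE, edgeR adjusted p = 0.0097) on the log2 scale. CCNA2 stood at 59.5 CPM in pool A of D3 and 22.6 CPM in pool B. None of the 9 genes of spindle and cytokinesis was called, with log2 fold changes between -0.23 (ANLN) and 0.74 (TACC3), and 2 of 8 chromosome and kinetochore genes were (BIRC5 and NDC80). TOP2A, at 69.1 and 65.3 CPM at D0, had 49.4 CPM in pool A and 105 CPM in pool B of D3, and MKI67 had 61.3 and 62.8 CPM and then 63.3 and 109 CPM. The D3 pools thus differed in opposite ways for these 2 genes and for CCNA2, PLK1, MCM2, MCM5 and MCM7.

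Over D3, D5 and D7 together against D0, 36 of 59 genes were called and all rose, beside 40.2% of all genes tested in either direction and 19.6% that rose. They were 20 replication genes, 4 G1/S regulators and 12 mitosis genes, and without the 4 genes rare at D0 they were 32 of 55. Leaving out pool B of D0 left 22 calls. Among the replication genes that passed at D0 itself, CDC6 (2.70 ± 0.26, SE, edgeR adjusted p = 3.8e-06) and CDT1 (2.62 ± 0.27) rose most. The fourth G1/S regulator was CCND2, for which the D3 pools lay below D0 and the D7 pools above.

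**Figure D2:**
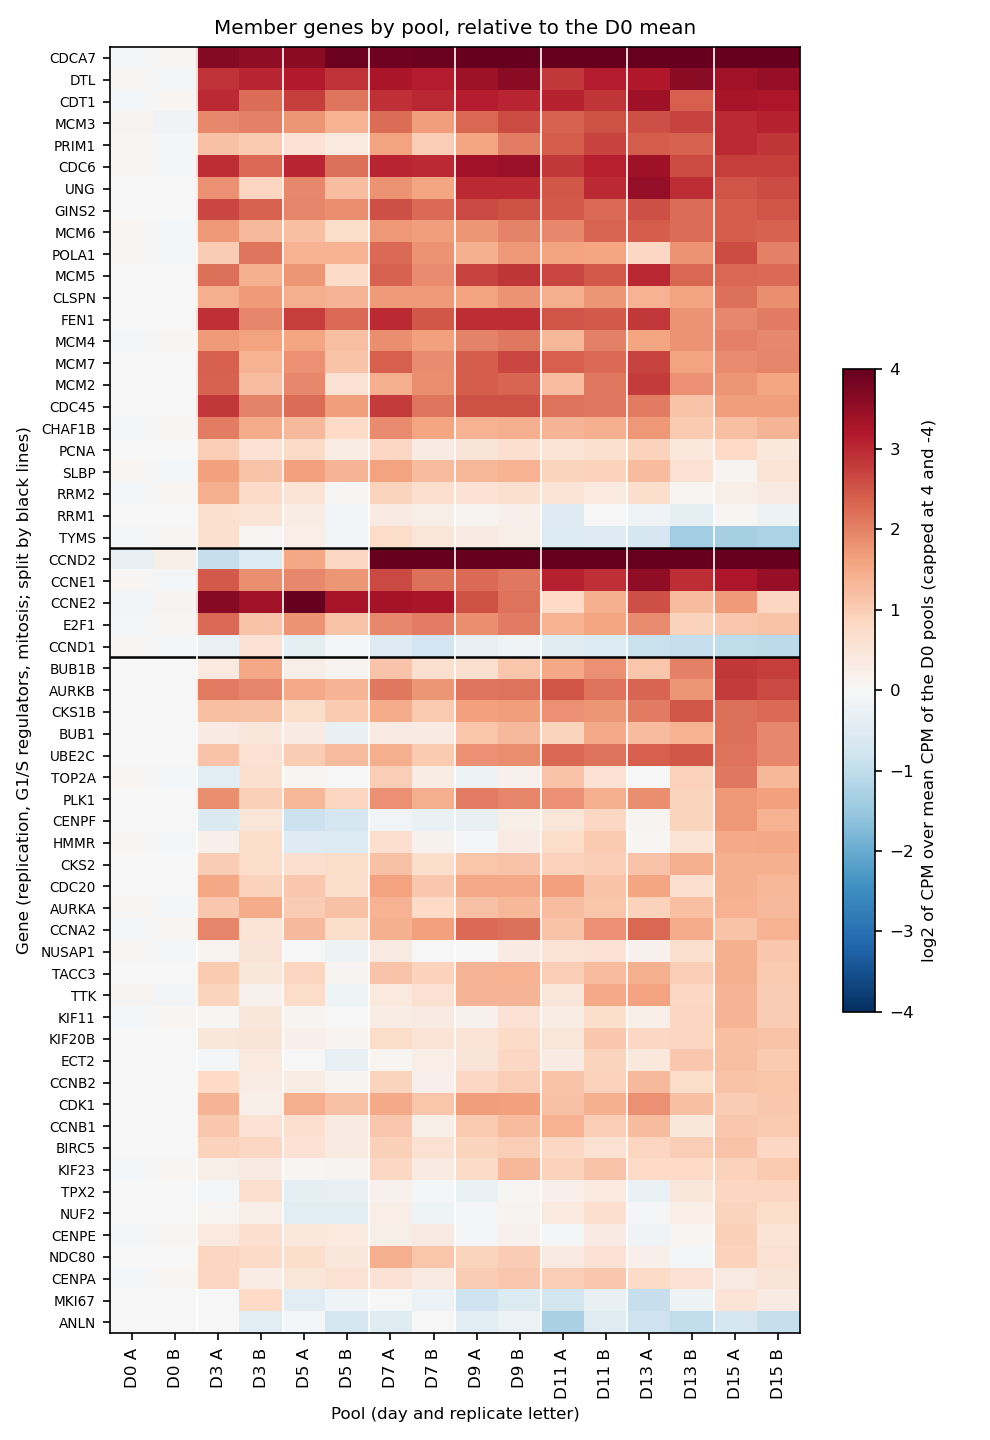
Level of each of the 59 genes (rows, sorted within each list by the D15 fold change) in each of the 16 pools (columns), as log2 of CPM over the mean CPM of the D0 pools, capped at 4 and -4. Most replication rows turn red at D3, mitosis rows darken mainly at D15, and TYMS, CCND1 and ANLN are blue at D15.

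Between adjacent days after D3 few of the 59 genes were called, as were few of all genes. D5 against D3 gave 1 call, beside 3.56% of all genes tested, with 15 of the 59 (25.4%) at an unadjusted p under 0.05 beside 19.7% of all genes tested. D7 against D5 gave 1, beside 2.06%, with 14 (23.7%) at that p beside 16.1%, and D9 against D7 gave 2, beside 7.37%, with 8 (13.6%) at that p beside 26.9%. D11 against D9, D13 against D11 and D15 against D13 gave 0 calls by edgeR, beside 4.09%, 0.117% and 0.086% of all genes tested. At an unadjusted p under 0.05 there were 10, 4 and 18 of the 59 (16.9%, 6.78% and 30.5%), beside 24.2%, 16.2% and 23.2% of all genes tested. DESeq2 gave 1, 0 and 3 calls for these steps, 4 for D5 against D3 and 4 for D7 against D5. In simulated counts for D11 against D9, 6 of 50 genes changed 2-fold were called, and 48 of 50 changed 4-fold. With 2 pools per day, most 2-fold steps between adjacent days would therefore be missed.

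CCND2, a cyclin D that is nearly absent from these fibroblasts, was the gene called at D5, D7 and D9, at chr12:4269771-4305353 (plus strand). It stood at 0.390 and 0.571 CPM at D0 and 0.256 and 0.331 CPM at D3, at 1.42 and 0.850 CPM at D5, 12.9 and 9.89 CPM at D7 and 40.3 and 51.7 CPM at D9. From D11 on it lay between 50.5 and 66.7 CPM. CCND2 passed the filter through the days when it is high, so its folds are given as a description. The pools of adjacent days did not overlap from D3 to D9, with fitted log2 fold changes of 1.89, 3.30 and 1.97. Its share of cells with a UMI, after thinning each cell to 5000 UMIs, was 0.2% in both D0 pools and between 21.4% and 24.0% in the pools of D11 to D15. CCND1 went the other way, from 524 and 481 CPM at D0 to 246 and 246 CPM at D15, where it was still above CCND2. In pluripotency-marker-high cells of D9 to D15 the median pool value was 266 CPM for CCND1 and 49.4 CPM for CCND2. The call of D5 against D3 was lost without pool A of D3 and without pool A of D5.

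UNG, the glycosylase that removes uracil from DNA, was the other gene called at D9. It rose from 26.4 and 22.8 CPM at D7 to 60.4 and 60.8 CPM at D9 (log2 fold change 1.26 ± 0.28, SE, edgeR adjusted p = 0.0089) and reached 87.7 and 58.8 CPM at D13. The call was close to the threshold: 1 of the calls at D9 was lost in 10 of 16 fits that left out a pool.

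The late days against the early reprogramming days gave calls in both directions. In the mean of D9, D11, D13 and D15 against the mean of D3, D5 and D7, 28 genes were called, 21 higher and 7 lower, beside 43.5% of all genes tested in either direction and 21% that rose. In either direction 47.5% of the members were called, near the share over all genes, while by direction 35.6% rose and 11.9% fell, beside 21% and 22.5% of all genes tested. Without DTL, CDCA7, CCNE2 and CCND2, 19 of 55 members rose and 6 fell. Of the replication genes 6 rose and 3 fell, of the G1/S regulators 2 rose and 2 fell, and of the mitosis genes 13 rose and 2 fell. The G1/S regulators that rose include CCND2 and those that fell include CCNE2. Both passed the filter through the days when they are high. The replication genes called were 39.1% of that list, near the share over all genes, with 26.1% that rose and 13% that fell. For the mitosis genes 41.9% rose and 6.45% fell. The median log2 fold change was 0.21 over the replication genes, 0.41 over the mitosis genes and -0.02 over all genes tested.

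Replication genes that rose late included subunits of helicase and primase. PRIM1, the catalytic subunit of primase, had 12.7 and 11.8 CPM at D3, 16.8 and 23.3 CPM at D9 and 44.8 and 41.2 CPM at D15, and its late to early log2 fold change was 1.41 ± 0.12 (SE, edgeR adjusted p = 6.0e-07). MCM3 went on from 79.5 and 100 CPM at D9 to 129 and 136 CPM at D15, above every pool of D3 to D7 (0.77 ± 0.12, SE, edgeR adjusted p = 9.0e-05). MCM5 (0.78), MCM6 (0.74), UNG (1.28) and CDCA7 (0.54) made up the rest of the 6. The late pools of PRIM1 and MCM5 overlapped the early ones, while those of MCM6, UNG and CDCA7 lay above them.

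TYMS, SLBP and RRM1 fell over the same days, each with late pools that overlapped the early ones. TYMS stood at 182 and 154 CPM at D7, 139 and 129 CPM at D9, 74.9 and 76.3 CPM at D11, 68.8 and 41.6 CPM at D13 and 43.8 and 45.4 CPM at D15, below its 105 and 115 CPM of D0. Its late to early log2 fold change was -1.03 ± 0.11 (SE, edgeR adjusted p = 4.1e-06), and D15 against D0 gave -1.37 ± 0.21 (SE, edgeR adjusted p = 8.8e-05). SLBP fell by 0.60 and RRM1 by 0.46 on the log2 scale, while RRM2 (-0.33, edgeR adjusted p = 0.034) and PCNA (-0.06) were not called. Across the 16 pools, TYMS had a Pearson correlation of -0.12 with the mean of the other replication genes and RRM1 one of 0.09, against a median of 0.89 over the 23 genes and 0.98 for CDC6. These correlations describe pools that share the time course.

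Among G1/S regulators CCNE2 lost most of its early rise: it was between 4.36 and 9.31 CPM in the pools of D3 to D7, 2.69 and 2.06 CPM at D9 and between 0.789 and 2.71 CPM in the pools of D11 to D15 (fitted late to early log2 fold change -1.90, a description since CCNE2 passed the filter through the early days). CCNE1 rose to 31.3 and 20.6 CPM at D13 and 25 and 30.0 CPM at D15 (0.76 ± 0.13, SE, edgeR adjusted p = 0.00021). The fitted value for CCND2 was 5.10, and CCND1 fell by 0.50 on the log2 scale. For CCNE1 and CCND1 the late pools overlapped the early ones. The 2 cyclin D genes and the 2 cyclin E genes thus had fitted values of opposite sign within each pair.

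BUB1, a spindle checkpoint kinase, had 6.83 and 7.42 CPM at D3 and 24.7 and 20.5 CPM at D15 (late to early log2 fold change 1.16 ± 0.13, SE, edgeR adjusted p = 4.7e-06). UBE2C, the ubiquitin-conjugating enzyme of the anaphase-promoting complex, was at 172 and 120 CPM at D3 and 410 and 436 CPM at D13 (1.00 ± 0.11, SE, edgeR adjusted p = 7.6e-06), and all its late pools lay above its early ones. BUB1B (0.99 ± 0.22, SE, edgeR adjusted p = 0.0018) and CENPF (0.95 ± 0.20, SE, edgeR adjusted p = 0.0012) rose with pools that overlapped. CKS1B, a small partner of the cyclin-dependent kinases, reached 495 and 515 CPM at D15 from 106 and 107 CPM at D0. NDC80, of the kinetochore, and ANLN, of the cleavage furrow, fell by 0.37 and 0.50, also with pools that overlapped. CDC20 (0.15, edgeR adjusted p = 0.40), MKI67 (-0.38, edgeR adjusted p = 0.072) and TOP2A (0.45, edgeR adjusted p = 0.13) were not called: MKI67 was lowest in pool A of D13, at 32.9 CPM, and stood at 89.9 and 77.1 CPM at D15.

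At the end of the series 47 of 59 genes differed between D15 and D0, 45 higher and 2 lower, beside 53.4% of all genes tested in either direction and 26.8% that rose. The 45 comprised 18 replication genes, all of them also called at D3, 2 G1/S regulators and 25 mitosis genes, of which 16 had not been called at D3. Leaving out 1 pool gave between 33 and 51 calls. The fall was in TYMS and CCND1 (-1.10 ± 0.26, SE, edgeR adjusted p = 0.0024). Among the 55 members with a UMI in at least 5% of D0 cells, 42 rose and 2 fell. CCNE1 (3.29 ± 0.25), CDT1 (3.197 ± 0.30) and MCM3 (2.96 ± 0.23) had large rises there. CCND2 (6.75), CDCA7 (4.40) and DTL (3.35) had larger fitted values, but they passed the filter only through the days when they are high, so these are a description. In mitosis BUB1B rose most, from 6.45 and 6.22 CPM to 45.2 and 43.4 CPM (2.74 ± 0.42, SE, edgeR adjusted p = 8.8e-05), then AURKB (2.65 ± 0.20), CKS1B (2.18 ± 0.23) and BUB1 (1.99 ± 0.23). TOP2A stood at 288 and 168 CPM and CENPF at 352 and 276 CPM, each higher in pool A of D15. ANLN had 16.7 and 17.2 CPM at D0 and 10.7 and 8.99 CPM at D15 and did not pass (-0.84, edgeR adjusted p = 0.013).

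**Figure D3:**
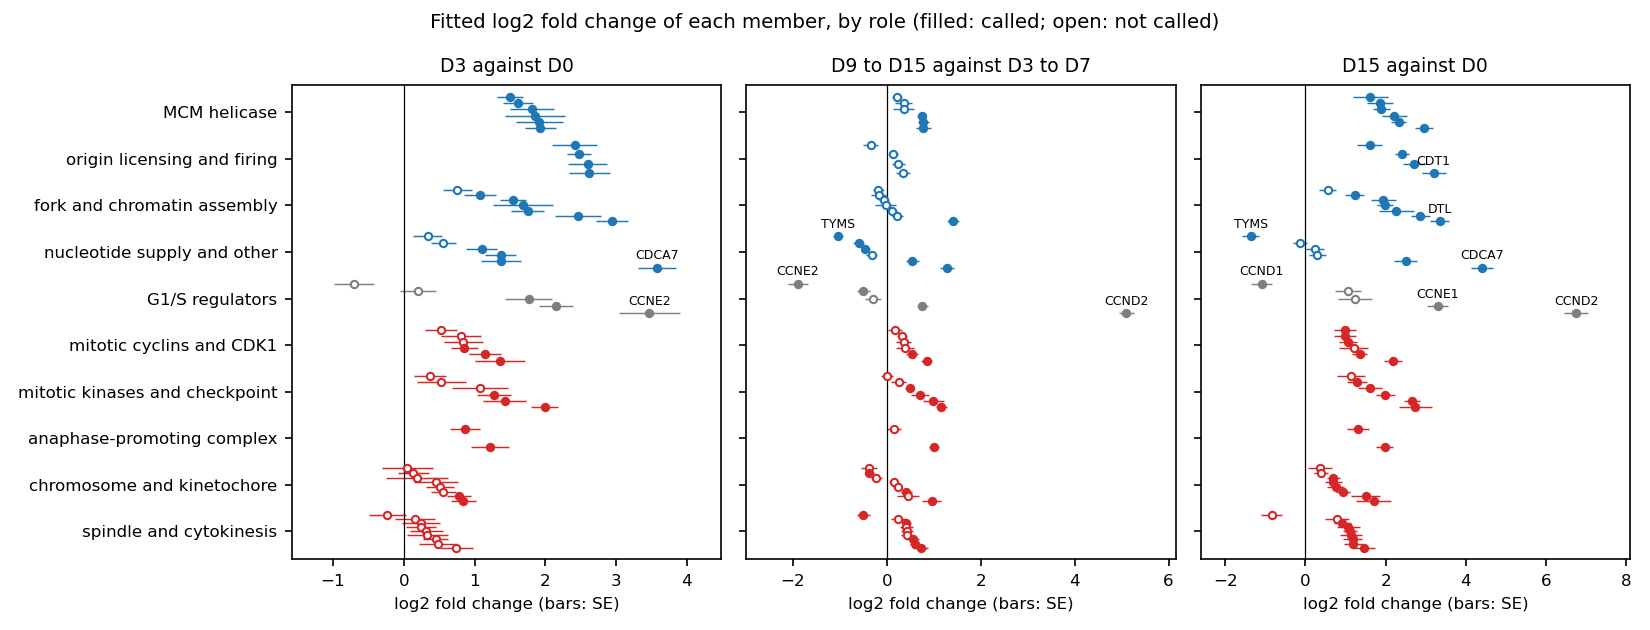
Fitted log2 fold change (x axis) of each of the 59 genes, arranged by role (y axis), for D3 against D0, D9 to D15 against D3 to D7, and D15 against D0, with standard errors as bars. Filled points were called and open points were not; blue marks replication genes, grey G1/S regulators and red mitosis genes. The helicase, licensing and firing genes are filled at D3, spindle genes are open at D3, and 7 of those 9 are filled at D15.

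Within cells, the share with at least 3 UMIs of a list was measured after thinning each cell to 5000 UMIs. No kept cell was shallower. For the mitosis list it was 33.4% and 34.7% in the D0 pools, 71.9% and 80.3% at D3, 51.2% and 56.0% at D5, 95.1% and 63.1% at D7, 81.3% and 86.7% at D9, 90.3% and 73.8% at D11, 74.4% and 97.0% at D13 and 94.9% and 95.7% at D15. For the replication list it was 27.1% and 27.9% at D0, 69.8% and 64.2% at D3, 53.6% and 46.8% at D5, 83.2% and 59.7% at D7, 73.4% and 79.2% at D9, 72.6% and 67.9% at D11, 72.2% and 78.3% at D13 and 85.1% and 82.2% at D15. Every later pool lay above both D0 pools on both measures. A few abundant genes can be enough to pass the mitosis limit. At D15 a CKS1B UMI was in 86.9% and 87.6% of thinned cells and a CKS2 UMI in 80.7% and 80.3%. For MKI67 it was 31.5% and 27.3%. The share is therefore not a share of cells in mitosis. The means of D9 to D15 exceeded the means of D3 to D7 by 17.2 percentage points for mitosis and 13.5 percentage points for replication. For mitosis this was 10.8 points with a limit of 2 UMIs and 8.22 points at 10000 UMIs per cell. Without thinning, where nearly every cell passes, it was 0.521 points for mitosis and 0.808 points for replication. With 2 pools per day the days were not tested, and pools A and B of D7, D11 and D13 differed by more than 16 percentage points for mitosis.

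Cells with at least 3 mitosis UMIs held on average 16.6 and 16.2 such UMIs in the D0 pools, 12.1 and 12.1 at D7 and 18.2 and 16.05 at D15. For the replication list the mean in cells past its limit was 5.66 and 5.75 UMIs at D0, 7.27 and 7.29 at D7 and 6.37 and 6.39 at D15. Cells that only just pass a limit lower such a mean, so it is given as a description. Cells past both limits were 19.6% and 20.3% at D0, 62.1% and 58.8% at D3 and 84.6% and 81.6% at D15. Cells past the replication limit alone were 7.52% and 7.51% at D0, 13.1% and 10.1% at D5 and 0.525% and 0.569% at D15. Free RNA from broken cells adds UMIs to every droplet, and its part in the shares was not tested.

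**Figure D4:**
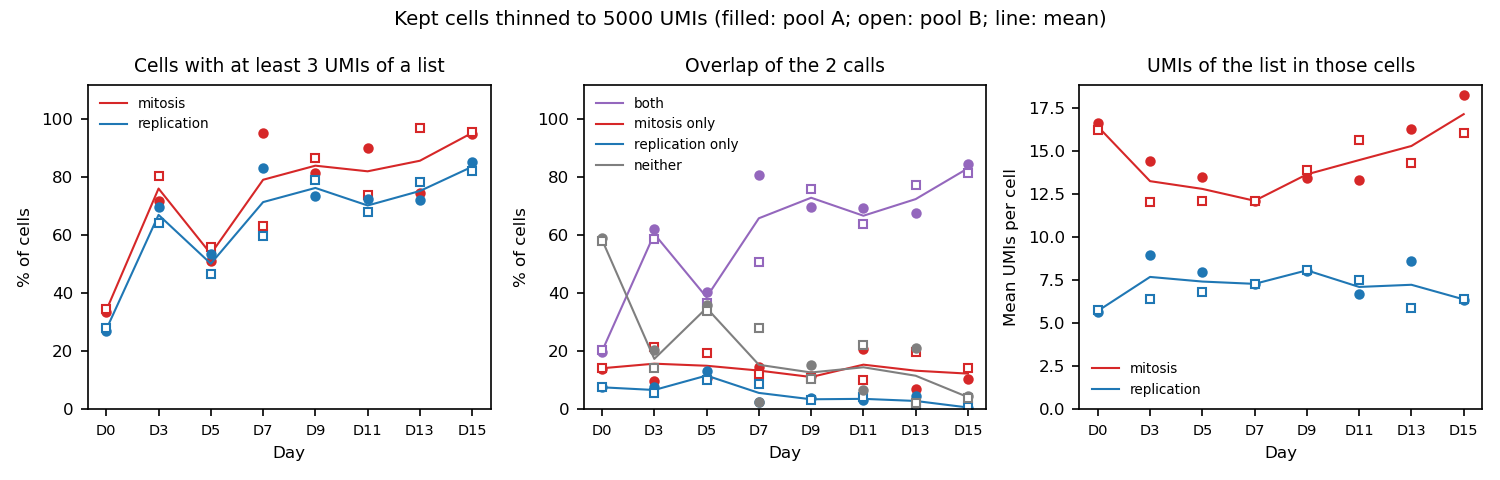
Cells thinned to 5000 UMIs, by day (x axis): left, the percentage with at least 3 mitosis or replication UMIs; middle, the percentage past both limits, 1 or neither; right, the mean number of UMIs of the list in the cells past its limit. Filled circles are pool A, open squares pool B, and lines join the means of 2 pools. Cells past neither limit drop from 59.04% and 57.8% at D0 to 4.55% and 3.70% at D15.

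From D9 on the cells were also divided by their own markers. The score used the UMIs of 5 pluripotency genes (L1TD1, TDGF1, DPPA4, EPCAM and CDH1) and 6 matrix genes (COL1A1, COL1A2, COL3A1, COL6A3, LUM and DCN). LUM and DCN are not collagen genes. A cell was called pluripotency-marker-high when at least 0.75 of these UMIs came from the pluripotency genes. It was called collagen-high at 0.25 or less, and at least 10 such UMIs were required. Of 17727 cells, 9502 were pluripotency-marker-high, 5172 collagen-high and 3012 between, and 2170 lay within 0.05 of the upper limit. These classes are ranges of a score, not cell types. Pluripotency-marker-high cells were the deeper class in every pool, with median UMIs of 31050 to 72348 per pool beside 21484 to 50880 in collagen-high cells. The UMIs of each class were summed per pool, and the 8 pools entered as blocks.

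Nearly all members were higher in pluripotency-marker-high cells. Of 59 genes 54 were called higher and 0 lower by edgeR, with 55 at an unadjusted p under 0.05 and 54 called by DESeq2, beside 70.1% of 12783 genes tested in either direction and 35.5% that were higher. The count was 21 of 23 replication genes, 2 of 5 G1/S regulators and 31 of 31 mitosis genes, with median log2 fold changes of 1.45, 0.11 and 1.49 beside 0.03 over all genes tested. The same 54 genes were higher in all 8 pools. Replication genes summed to 1094 to 1703 CPM in pluripotency-marker-high cells and 467 to 858 CPM in collagen-high cells, and mitosis genes to 3040 to 3844 CPM and 947 to 1741 CPM, with no overlap between the classes.

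PRIM1 had the largest replication difference, with a lowest, median and highest pool value of 23.9, 43.1 and 53.1 CPM against 5.45, 8.82 and 13.8 CPM (log2 fold change 2.23 ± 0.14, SE, edgeR adjusted p = 3.6e-07). MCM5 had 79.6, 128 and 168 CPM against 19.3, 32.0 and 48.0 CPM (1.95 ± 0.17, SE, edgeR adjusted p = 2.7e-06), and UNG 46.1, 72.8 and 116 CPM against 12.6, 20.1 and 25.8 CPM (1.93 ± 0.11, SE, edgeR adjusted p = 2.7e-07). These ranges did not overlap. Among mitosis genes BUB1B (1.94 ± 0.16), HMMR (1.77 ± 0.14), UBE2C (1.74 ± 0.15) and CCNA2 (1.73 ± 0.10) differed most, and ANLN (0.66 ± 0.09) and MKI67 (1.00 ± 0.14) were higher too, although neither was called higher at D15 than at D0. CCNE1 had 12.8, 27.5 and 40.3 CPM against 7.19, 9.85 and 10.4 CPM (1.42 ± 0.20, SE, edgeR adjusted p = 9.0e-05) and E2F1 differed by 1.11 ± 0.16.

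The 5 members not called were TYMS (-0.10 ± 0.08), SLBP (0.20 ± 0.07), CCNE2 (0.11 ± 0.36), CCND1 (-0.26 ± 0.16) and CCND2 (-0.24 ± 0.35). TYMS had 36.7, 63.1 and 143 CPM in pluripotency-marker-high cells and 43.4, 69.0 and 118 CPM in collagen-high cells. All of these ranges overlapped. In the thinned cells, 98.7% to 100% of pluripotency-marker-high cells per pool had at least 3 mitosis UMIs and 90.5% to 98.0% at least 3 replication UMIs. Of collagen-high cells, 27.4% to 86.2% and 24.8% to 46.3% did, and pools A of D11 and B of D13 had the highest mitosis shares of that class, 78.2% and 86.2%.

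**Figure D5:**
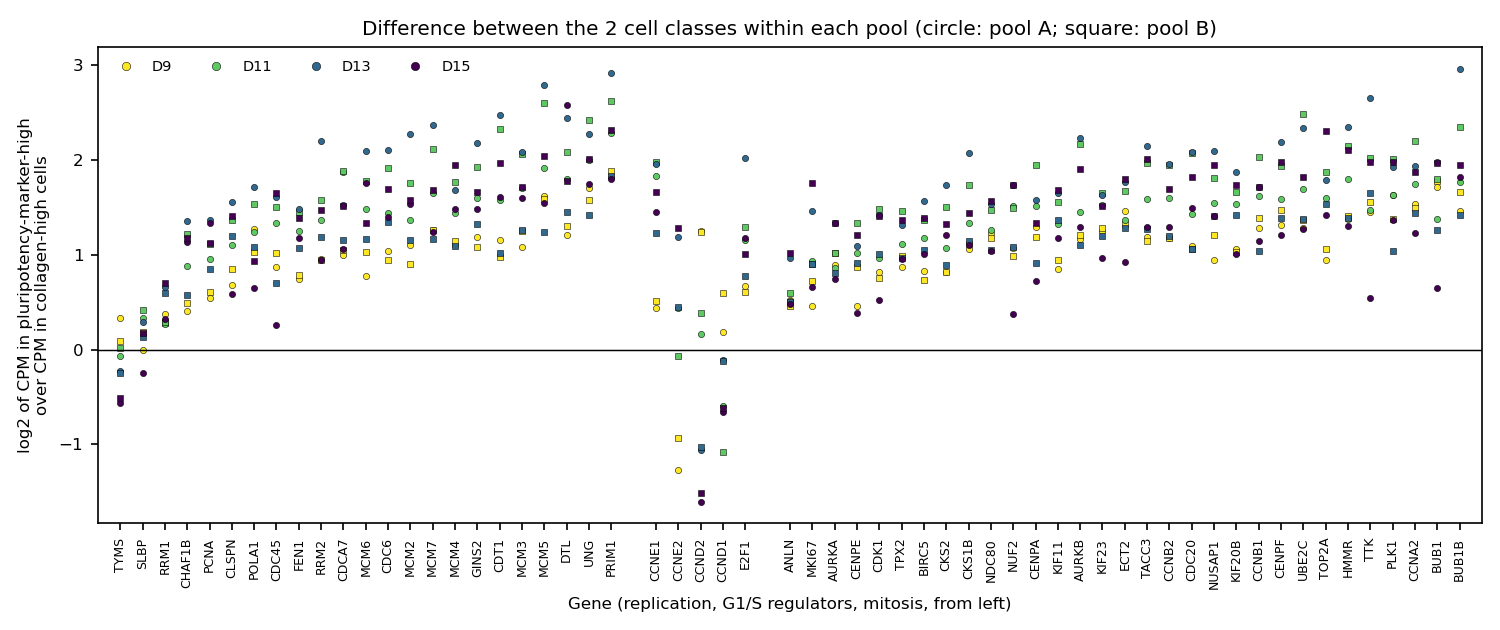
log2 of the CPM in pluripotency-marker-high cells over the CPM in collagen-high cells (y axis) for each of the 59 genes (x axis), 1 point per pool of D9 to D15 coloured by day; circles are pool A and squares pool B. All 8 points lie above 0 for 54 genes, while TYMS, SLBP, CCND2, CCND1 and CCNE2 have points on either side; 1 pool in which CCNE2 had 0 UMIs in collagen-high cells has no point.

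Other genes of the same pathways were counted from longer lists. Of 39 further replication genes, 26 rose and 0 fell at D3 against D0 and 30 rose and 0 fell at D15, beside 13.1% and 26.8% of all genes tested that rose. For 7 of the 39 fewer than 5% of D0 cells had a UMI, so that they passed the filter through later days, and among the other 32 these counts were 20 and 23. Of the 7, MCM10, which helps to start the fork, and ORC1, of the origin recognition complex, had fitted log2 fold changes of 3.53 and 3.27 at D3, given as a description. HELLS, the chromatin remodeller that CDCA7 partners, went from 18.1 and 17.3 CPM at D0 to 39.5 and 88.5 CPM at D3 and 435 and 312 CPM at D15 (D15 against D0, 4.33 ± 0.58, SE, edgeR adjusted p = 2.7e-05). Of 42 further mitosis genes, 12 rose and 1 fell at D3, and 20 rose and 3 fell at D15. The 28.6% and 47.6% that rose stand beside 13.1% and 26.8% of all genes tested, and the 2.38% and 7.14% that fell beside 12.6% and 26.7%. Without ESPL1, which had a UMI in fewer than 5% of D0 cells, 12 of 41 rose and 1 fell at D3, and 19 rose and 3 fell at D15. The one that fell furthest in both was CIT, citron kinase (-2.01 ± 0.34 and -3.21 ± 0.36). In the class comparison 37 of 39 and 37 of 42 were higher, beside 35.5% of all genes tested, and 1 of the 42 was lower, the phosphatase CDC25B (-1.0 ± 0.08), with ranges that overlapped.

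Of 21 cell cycle regulators tested, 7 rose and 1 fell at D3, and 8 rose and 4 fell at D15 against D0. The 33.3% and 38.1% that rose stand beside 13.1% and 26.8% of all genes tested, and the 4.76% and 19% that fell beside 12.6% and 26.7%. Without 4 genes with a UMI in under 5% of D0 cells, 3 of 17 rose and 1 fell at D3, and 4 rose and 4 fell at D15. Among these 17 the share that rose was near the 13.1% of all genes tested at D3 and below the 26.8% at D15. CDC25A, which was 1 of the 4, the phosphatase that activates cyclin E and A kinases, went from 0.618 and 0.707 CPM at D0 to 9.70 and 9.87 CPM at D3 (fitted log2 fold change 3.85, a description) and 16.2 and 17.5 CPM at D15. MYBL2, the B-MYB subunit that acts on mitosis genes, went from 3.68 and 4.65 CPM to 44.6 and 32.1 CPM at D3 and 99.2 and 102 CPM at D9. FOXM1 had 18.3 and 21.9 CPM at D0, 24.4 and 23.8 CPM at D3, 13.9 and 11.2 CPM at D5 and 27.4 and 24.9 CPM at D15, and D5 against D3 was called (-1.0 ± 0.18, SE, edgeR adjusted p = 0.0041). RB1, the retinoblastoma gene, stood at 12.8 and 14.03 CPM at D0 and 6.06 and 4.46 CPM at D15 (-1.42 ± 0.31, SE, edgeR adjusted p = 0.0014).

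Of 7 CDK inhibitors 4 fell and 0 rose at D3, and 5 fell and 0 rose at D15, beside 12.6% and 26.7% of all genes tested that fell. The 5 at D15 include CDKN2C, which passed the filter through the earlier days. CDKN2C (p18) stood at 48.7 and 49.6 CPM at D0, 27.1 and 17.9 CPM at D3, 2.50 and 2.51 CPM at D9 and 0.241 and 0.262 CPM at D15 (fitted log2 fold change of D15 against D0 -7.65, a description since 0.859% of D15 cells had a UMI of it and it passed the filter through the earlier days). CDKN1A (p21) stood at 328 and 341 CPM at D0, 192 and 146 CPM at D3 and 14.6 and 23.2 CPM at D15 (-4.21 ± 0.42, SE, edgeR adjusted p = 2.0e-06). CDKN2A, the locus of p16 and ARF, was at 83.8 and 86.9 CPM at D0, 110 and 60.8 CPM at D3, 118 and 98.7 CPM at D9 and 9.43 and 14.1 CPM at D15. In the class comparison 5 of the 7 (71.4%) were called, all lower in pluripotency-marker-high cells, beside 70.1% of all genes tested in either direction and 34.7% that were lower. These 5 also include CDKN2C, with a UMI in 1.14% of pluripotency-marker-high and 19.7% of collagen-high cells, for which the difference is a description. CDKN2B differed by -4.63 ± 0.25 (SE, edgeR adjusted p = 1.8e-07). In the late against the early days 4 of the 7 fell, beside 22.5% of all genes tested, and CDKN2B rose by 1.43 ± 0.21 (SE, edgeR adjusted p = 7.3e-05). It had 2.50 to 6.21 CPM in the pools of D3 to D7, 10.4 and 11.1 CPM at D9, 13.6 and 13.8 CPM at D11, 21.7 and 8.89 CPM at D13 and 3.32 and 6.90 CPM at D15, so that the late pools overlapped the early ones.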

How the data were processed

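Single-cell RNA-seq UMI counts were taken as deposited, raw counts per gene and barcode that the authors made with Cell Ranger 2.2 on hg38. Cell Ranger leaves out reads that map to several genes, so members with near-identical copies may be undercounted. Aliquots of a pool were added together. Barcodes were kept from 1000 detected genes upwards and up to 10% mitochondrial UMIs (41975 of 44197), and genes with a UMI in at least 5% of them were tested (12794). No doublet caller was run; an alternative left out the deepest 5% of cells of each pool.

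UMIs summed per pool were tested with edgeR 4.0.16 (quasi-likelihood test, TMM, 16 pools in 1 fit) in R 4.3.3, with 10 comparisons of days and 1 of classes. The call required a Benjamini-Hochberg adjusted p under 0.01 and an absolute log2 fold change over 0.25. CPM values are UMIs per 1000000 of the pool total, without TMM factors (0.931 to 1.08), and errors of fold changes are standard errors from the fit. DESeq2 1.42.0 was an alternative. P-values measure the spread between pools of 1 cell line, and pools A and B of a day may be technical repeats. The step was tested on simulated counts. Positions are from GENCODE 44. Python 3.11.15, numpy 2.4.6, pandas 2.3.3 and matplotlib 3.10.9 were used.

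The members, gene lists and classes were chosen with earlier results of these data known. All 59 genes may be named; full statistics were given for at most the 4 called members with the largest fold in each direction within each list and for members that moved against their list, and for the 2 such genes of each further list. CDKN2A was named after its values were seen.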

Additional observations from a re-analysis of the deposited data

Results flagged for a closer look

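For 4 members both pools of some days were higher in pluripotency-marker-high cells and both pools of other days higher in collagen-high cells. CCND2 was higher in pluripotency-marker-high cells at D9 and D11, with log2 ratios of 1.25, 1.25, 0.16 and 0.39 per pool, and lower at D13 and D15, with -1.06, -1.03, -1.60 and -1.51, so that the means of those days were 2.06 apart. In collagen-high cells CCND2 stood at 21.5 and 27.7 CPM at D9 and 127 and 131 CPM at D15, and in pluripotency-marker-high cells at 51.1 and 65.6 CPM and 41.9 and 46.1 CPM. An interaction term, chosen after the data were seen, gave a class effect at D13 and D15 below that at D9 and D11. The difference was -1.94 ± 0.27 on the log2 scale (SE, edgeR adjusted p = 0.012 over 12783 genes), past 0.05 but not past the threshold of 0.01. Of the 59 genes 0 passed that threshold by edgeR and 6 (10.2%) had an unadjusted p under 0.05, beside 24% of all genes tested; 16 of all genes passed.

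CCNE2 was lower in pluripotency-marker-high cells at D9 and higher at D13 and D15, with means 2.08 apart over the pools with a ratio; collagen-high cells of D15 held 0 and 2 UMIs of it. Its interaction term was 1.66 (edgeR adjusted p = 0.094). TYMS was higher in pluripotency-marker-high cells at D9 and lower at D13 and D15, with means 0.594 apart and an interaction term of -0.36 (edgeR adjusted p = 0.099). CCND1 was higher in these cells at D9 and lower at D11, D13 and D15, with means 0.925 apart; its term for D13 and D15 against D9 and D11 was -0.04 (edgeR adjusted p = 0.97), and D9 against the later days was not tested.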

How the results depend on the processing

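Leaving out each pool gave 16 to 34 members called at D3 against D0, 0 to 1 at D5 against D3, 1 to 1 at D7 against D5, 1 to 2 at D9 against D7, 0 to 1 at D11 against D9, 0 to 0 at D13 against D11 and 0 to 1 at D15 against D13. It gave 33 to 51 at D15 against D0, 22 to 38 for D3 to D7 against D0, 21 to 28 for late against early days and 54 to 55 for the classes. The counts of 16 came without a D0 pool. A lone pool of a day was taken to vary like the other days. With only the days compared in the fit, 0 members were called at D3 against D0, 0 at D5 against D3 and 1 at D11 against D9; the fit then rests on 4 pools. DESeq2 gave 4 at D5 against D3, 4 at D7 against D5, 1 at D11 against D9 and 3 at D15 against D13. With an adjusted p below 0.05 and no fold limit these were 4, 4, 2 and 3. Without the gene filter D5 against D3 gave 3, and without the deepest 5% of cells D9 against D7 gave 1; the cause was not tested. All other settings moved these counts by at most 1.5 times. Of 2934 values of named genes under alternatives, 2761 kept their direction and call, 173 kept their direction and lost the call, and 0 reversed.

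The main fit did not pair the pools by letter. The difference of pool A from pool B was correlated between days from -0.40 to 0.81 over 28 pairs of days, with a median of -0.02. It was over 0.1 for 10 of the pairs, so some days shared a difference by letter. With the letter as a replicate block, D3 against D0 gave 33 members, D15 against D0 48, D3 to D7 against D0 37 and late against early days 28, and the other days were as without it. Without the pool as a replicate block, the class comparison gave 52. The late minus early share of cells was 10.8, 23.6 and 8.22 percentage points for mitosis and 9.97, 12.6 and 9.12 for replication with at least 2 UMIs, with at least 5 and at 10000 UMIs per cell. Without thinning it was 0.521 and 0.808, since nearly every cell then passes 3 UMIs. With 2 pools per day, most 2-fold changes between adjacent days would be missed: 6 of 50 were called in simulated counts for D11 against D9.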
